A study of Mus musculus with 6 samples.

Results

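A set of genes were described mouse by mouse, E330012B07Rik, Gm4070, Gvin1 and Gm1966, which are 4 of the 24661 genes in the RNA-Seq of mouse olfactory mucosa. Earlier results of these data had shown E330012B07Rik and Gm4070 to be almost absent from some or all knockout mice, and Gvin1 and Gm1966 were added as relatives of Gm4070 among the very large inducible GTPases. The genes were therefore chosen on the comparison between the genotypes, and their own differences between the groups are given as a description, with no test.

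The libraries came from 3 wild-type mice (WT) and 3 mice without Rtp1 and Rtp2 (RTP1,2DKO), all labelled C57BL/6 and taken at post natal day 21. Rtp1 and Rtp2 encode receptor transporting proteins that help olfactory receptors reach the cell surface. Their coding regions had been replaced consecutively in ES cells of a hybrid line of 129 and B6 origin, and the chimeras and their descendants were crossed to C57BL/6. The methods describe the sequenced mice as littermates matched for sex. The number of backcross generations is not given in the sources used here, and no genotype other than that of Rtp1 and Rtp2 was available, so an effect of the deleted alleles and of any 129 segment shared by the RTP1,2DKO mice cannot be told apart. Nothing in the labels ties a member's locus to either strain.

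Very large inducible GTPases are cytosolic proteins whose genes are switched on by interferons, together with the smaller guanylate binding proteins (GBP), immunity related GTPases (IRG) and Mx proteins. In the mouse, the very large GTPase genes and many of their pseudogenes lie in a cluster on chromosome 7 among olfactory receptor genes. Interferons act through cell surface receptors, Janus kinases and transcription factors, and many of the induced GTPases restrict the growth of viruses or of pathogens in vacuoles.

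The deposited estimated counts totalled 31125410 to 41636996 per mouse, and all counts below were divided by size factors of 0.907 to 1.147 unless called estimated. The targeted genes followed the labels. Rtp1 had 20522, 25301 and 13542 normalized counts in WT mice 1 to 3, against 90.6, 85.5 and 108.8 in the same-numbered RTP1,2DKO mice, and its log2 fold change was -7.70 ± 0.26 (SE). Rtp2 fell from 8388 ± 1181 to 45.0 ± 16.7 normalized counts (SD, n = 3 mice per group). WT mouse 3 stood apart in genes of salivary gland and enamel: Amy1, a salivary amylase, had 15218 normalized counts there against 113 to 255 in the other mice. Calls that change without this mouse are given for some of the lists and neighbours they concern. Xist, the RNA that coats the inactive X chromosome, was at 73667 normalized counts in WT mouse 2 and 66385 in RTP1,2DKO mouse 2, and at no more than 155 in the other mice, so the mice numbered 2 were the females of each group. The RNA came from whole mucosa, in which fewer cells of a type and less RNA per cell cannot be told apart.

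All 3 GTPase members lie on the minus strand of chromosome 7 in the GRCm38 (mm10) build. Gm4070 is annotated as protein coding at chr7:105895139-105953967 and Gvin1 as protein coding at chr7:106156556-106215326, with 261.4 kb between their starts. Gm1966, at chr7:106596743-106604035, starts 440.2 kb beyond Gvin1 and is an unprocessed pseudogene in GENCODE M21 but protein coding in RefSeq. E330012B07Rik is a long intergenic noncoding RNA (lincRNA) on the plus strand at chr6:147180244-147208285, and no role of it is stated here. The deleted genes are on chromosome 16, so no member shares a chromosome with them.

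The transcripts of Gm4070 and Gvin1 are nearly the same molecule, which bears on every count given for them. Their GENCODE transcripts Gm4070-201 and Gvin1-201 both have 8795 bases and were identical at 8792 of them, with 3 mismatches and 0 gaps. The mismatches, counted from 1 at the 5′ end of the transcript with the base of Gm4070 first, were T1895G, A4994G and T7165C, and all 3 lie in the coding sequence in exon 2. They are shown in windows of 41 bases because reads over these bases are what can tell the genes apart, with the differing base in capitals and each sequence 5′ to 3′ on the minus strand of chromosome 7 (GRCm38). The windows at T1895G are chr7:105902019-105902059 in Gm4070 and chr7:106163436-106163476 in Gvin1, those at A4994G are chr7:105898920-105898960 and chr7:106160337-106160377, and those at T7165C are chr7:105896749-105896789 and chr7:106158166-106158206.
Gm4070 at T1895G: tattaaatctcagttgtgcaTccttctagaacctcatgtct
Gvin1 at T1895G: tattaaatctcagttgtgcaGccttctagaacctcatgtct
Gm4070 at A4994G: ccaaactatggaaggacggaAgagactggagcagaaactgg
Gvin1 at A4994G: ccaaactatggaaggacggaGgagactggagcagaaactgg
Gm4070 at T7165C: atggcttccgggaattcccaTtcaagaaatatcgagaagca
Gvin1 at T7165C: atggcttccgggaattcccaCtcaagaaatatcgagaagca

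Of the 8765 words of 31 bases in this transcript, the word length at which kallisto matches reads by default, 93 cover a differing base. Over all annotated transcripts of each gene, 1.41% of the words of Gm4070 and 0.34% of those of Gvin1 were found in no other gene, against 62.25% for Gm1966 and 99.82% for E330012B07Rik. The split of counts between Gm4070 and Gvin1 thus rested on few bases and is uncertain, whereas E330012B07Rik could be counted almost entirely on its own sequence. The deposited files do not say how many reads covered the differing bases. The authors' transcripts came from UCSC and differ somewhat in length from those of GENCODE, and these sets were not compared base by base.

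Gm4070 was present in every WT mouse and all but absent from every RTP1,2DKO mouse. It had 401.4, 328.2 and 436.6 normalized counts in WT mice 1 to 3, against 0, 0 and 6.9 in the same-numbered RTP1,2DKO mice. The means were 388.7 ± 55.3 and 2.3 ± 4.0 (SD, n = 3), and the whole signal of the knockout group came from 7 estimated counts in mouse 3. Where reads are counted directly, a count of 0 allows up to 3 counts by counting error. The zeros of Gm4070 are estimates that divide reads shared with Gvin1, so this limit does not bound them. The groups did not overlap, and the low mice were those of the knockout genotype and no others.

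By the same uncertain split with Gm4070, Gvin1 was higher in every RTP1,2DKO mouse than in any WT mouse. It had 248.3, 315.8 and 262.4 normalized counts in WT mice 1 to 3, against 614.3, 627.9 and 641.8 in the same-numbered RTP1,2DKO mice. The means were 275.5 ± 35.6 and 628.0 ± 13.8 (SD, n = 3), a log2 fold change of 1.19 ± 0.15 (SE). The RTP1,2DKO mice lay close together, and their spread was smaller than that of the WT mice.

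Gm1966 did not follow genotype. It had 263.8, 351.1 and 290.0 normalized counts in WT mice 1 to 3, against 402.5, 241.6 and 274.4 in the same-numbered RTP1,2DKO mice. The highest and the lowest mouse were both RTP1,2DKO, so the groups overlapped fully. The log2 fold change was 0.02 ± 0.21 (SE), and it lay between -0.23 and 0.16 over the fits that left out a mouse.

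E330012B07Rik followed single mice. WT mice 1 and 2 had 469 and 220 reads (485.2 and 209.9 normalized counts), whereas WT mouse 3 had 1 read and RTP1,2DKO mice 1 to 3 had 0, 0 and 1. WT mouse 3 was thus as low as the knockouts, and the nominal gap between the groups, 1.1 against 1.0 normalized counts, was that of a single read in each mouse. WT mouse 1 was 440-fold above WT mouse 3 (exact 95% binomial interval 78.6 to 17400) and WT mouse 2 was 190-fold above it (33.8 to 7550). Between the mice that expressed it, WT mouse 1 was 2.31-fold above WT mouse 2 (1.97 to 2.73), so these also differed beyond counting error. WT mouse 1 was a male and WT mouse 2 a female by Xist, so the high mice did not share a sex. The low WT mouse was the one with salivary and enamel transcripts, and the part of these in the low count was not tested.

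**Figure D1:**
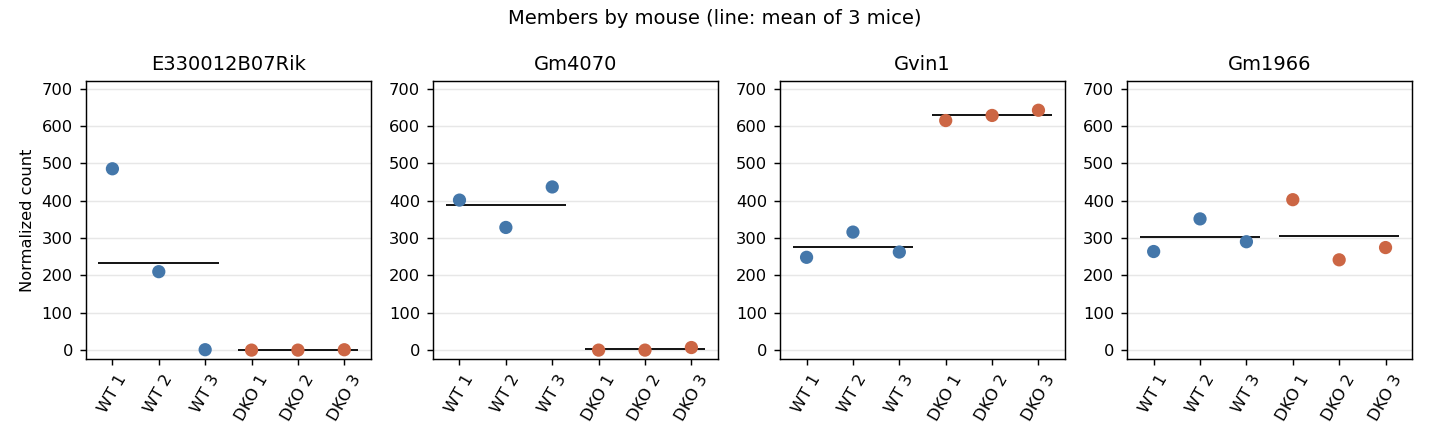
Normalized counts (y axis) of the 4 members in each mouse (x axis; DKO, RTP1,2DKO), with a line at the mean of the 3 mice of a group. Gm4070 and Gvin1, which divide shared reads, separate the groups in opposite directions. Gm1966 overlaps, and E330012B07Rik is high only in WT mice 1 and 2.

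By these counts, the groups did not overlap for 3 of the 4 members, one of them by a single read in each mouse, against 16.4% of the 22152 genes tested (9.24% with RTP1,2DKO lower and 7.17% with it higher). Gm4070 and Gvin1 divide shared reads, so their separations are not independent of each other. Since the members were chosen on this contrast, nothing was read from that count. Among all genes tested, 3.61% were called at an adjusted p under 0.05 by edgeR's quasi-likelihood test with Benjamini-Hochberg adjustment, 3.15% as lower and 0.46% as higher in RTP1,2DKO. All such p-values set the difference between the groups against the spread between these mice, which is estimated partly from all genes.

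Per length, the members were expressed at low levels. The deposited TPM of E330012B07Rik was 9.334 and 4.301 in WT mice 1 and 2. In WT mice, TPM was 1.46 ± 0.197 for Gm4070, 1.06 ± 0.324 for Gvin1 and 1.20 ± 0.374 for Gm1966 (SD, n = 3), so the 3 GTPase genes stood close to each other and Gvin1 and Gm1966 did not differ beyond their spread. In RTP1,2DKO mice, the TPM was 2.05 ± 0.308 for Gvin1, 1.04 ± 0.473 for Gm1966 and 0.00642 ± 0.0111 for Gm4070.

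The summed counts of Gm4070 and Gvin1 overlapped between the groups. The sum, which was chosen after the values were seen, was 649.7, 644.2 and 699.7 normalized counts in WT mice 1 to 3, against 613.9, 628.0 and 648.8 in the same-numbered RTP1,2DKO mice. Its means were 664.5 ± 30.6 and 630.2 ± 17.6 (SD, n = 3), a ratio of 0.948, and RTP1,2DKO mouse 3 lay above WT mouse 2. What differed was the division of the sum: Gm4070 took 61.8%, 51.0% and 62.5% of it in WT mice 1 to 3, against 0%, 0% and 1.06% in the same-numbered RTP1,2DKO mice. Why the division differed was not tested.

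The estimates per transcript divided the same pair further. In WT mice 1 to 3, the longest listed form of Gm4070 took 208.3, 22.3 and 50.5 estimated counts and its shorter form 179.8, 322.1 and 345.8. For Gvin1 the longest form took 129.4, 21.4 and 30.7 estimated counts in WT mice and 0 in every RTP1,2DKO mouse, where the shorter form took 582.6, 720.2 and 655.1. All estimated counts of Gvin1 in RTP1,2DKO mice were therefore on its shorter form. The estimated counts of Gm1966 also fell on different forms between mice: 220.5 of RTP1,2DKO mouse 1 were on a form with 0 in the WT mice, and 208.5 of RTP1,2DKO mouse 2 were on another such form. Whether reads tell the listed forms of a gene apart was not tested.

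A second pair of related loci in the same cluster showed a division that did not follow genotype. Gm17757 lies within the span of Gm4070 and Gm18853 within that of Gvin1. Gm18853 shared 99.02% of its words of 31 bases with the GENCODE gene Gm18852, of which RefSeq lists Gm17757 as a synonym. Gm17757 had 52.8, 0 and 1.1 normalized counts in WT mice 1 to 3, against 0, 41.0 and 43.1 in the same-numbered RTP1,2DKO mice. Gm18853, which was named after its values were seen, had 2.1, 44.8 and 38.6 in WT mice and 60.1, 1.7 and 2.0 in RTP1,2DKO mice. In every mouse nearly the whole count lay on a single gene of this pair, on Gm17757 in WT mouse 1 and RTP1,2DKO mice 2 and 3, and on Gm18853 in the other 3 mice. Their sum was 46.3 ± 7.6 normalized counts in WT and 49.4 ± 9.3 in RTP1,2DKO (SD, n = 3), with overlapping groups.

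**Figure D2:**
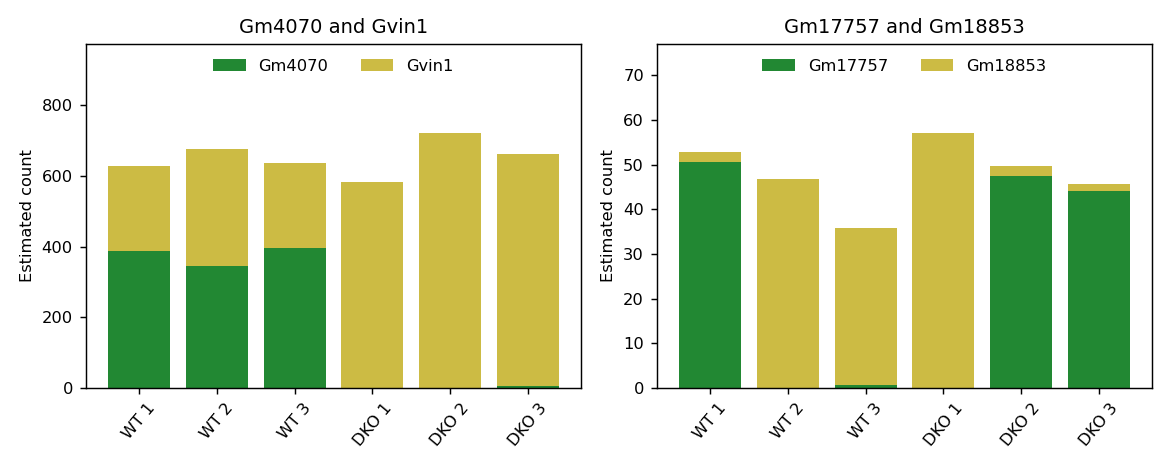
Estimated counts (y axis) in each mouse (x axis; DKO, RTP1,2DKO), stacked for Gm4070 and Gvin1 (left) and for Gm17757 and Gm18853 (right), on separate scales. The height of the left bars is alike in all mice while Gm4070 is missing or nearly so in the 3 DKO mice, and on the right either gene takes nearly all of a bar, in both genotypes.

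Other members of the cluster were at low counts. Gm8979, an unprocessed pseudogene between Gm4070 and Gvin1, had 17.6 to 59.5 normalized counts in WT and 47.0 to 66.4 in RTP1,2DKO mice. Gm8989, another unprocessed pseudogene, was listed at 0 in every mouse. Over the 7 related loci together, the count was 1054.6 ± 59.6 in WT and 1044.7 ± 87.4 in RTP1,2DKO (SD, n = 3).

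Near on-off patterns were not restricted to these genes. A gene was called near on-off if its highest mouse had at least 50 normalized counts and some other mouse had at most that divided by 8, and 323 of 16259 genes (1.99%) met this. Among them, 193 were low in a single mouse, and 142 were olfactory receptor genes (Olfr), each of which is read in few cells. Low counts in all 3 RTP1,2DKO mice and in no WT mouse, the pattern of Gm4070, were seen in 24 genes, of which 20 were Olfr genes. This set depends on the ratio, with 170 genes at a ratio of 4 and 4 at a ratio of 16, of which 4 and 3 were not Olfr genes. At a ratio of 8 the other 4 were Rtp1, Rtp2, Gm4070 and Vmn2r38, a vomeronasal receptor gene with 131.4, 21.9 and 62.8 normalized counts in WT mice and 0, 0 and 13.7 in RTP1,2DKO mice. The Olfr genes of this set with the largest ratios of the highest to the lowest mouse were Olfr764, Olfr1495, Olfr606, Olfr1111, Olfr317 and Olfr1047, and the highest count among them was 129.8, for Olfr1047 in WT mouse 2. The opposite pattern, low in all WT mice and in no RTP1,2DKO mouse, was met by 0 genes.

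The pattern of E330012B07Rik, low in WT mouse 3 and in all RTP1,2DKO mice, was met by that gene alone among the 323. With the minimum lowered to 20 normalized counts, 2 genes met it.

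Another gene of the inducible GTPases was near on-off in a way that followed neither the genotype nor E330012B07Rik. Gbp2b, a guanylate binding protein, had 4.1, 391.2 and 13.2 normalized counts in WT mice 1 to 3, against 8.4, 290.4 and 6.9 in the same-numbered RTP1,2DKO mice. Ifi44l, an interferon-induced gene, had 0, 279.6 and 0 in WT mice and 2.1, 234.6 and 7.8 in RTP1,2DKO mice. Both genes lie on chromosome 3, 9.16 Mb apart, and both were named after their values were seen. The mice that expressed them were mouse 2 of each group, which were also the females. Only Xist and Eif3j2 shared this pattern among the near on-off genes, and sex and any other property shared by the mice numbered 2 cannot be told apart.

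**Figure D3:**
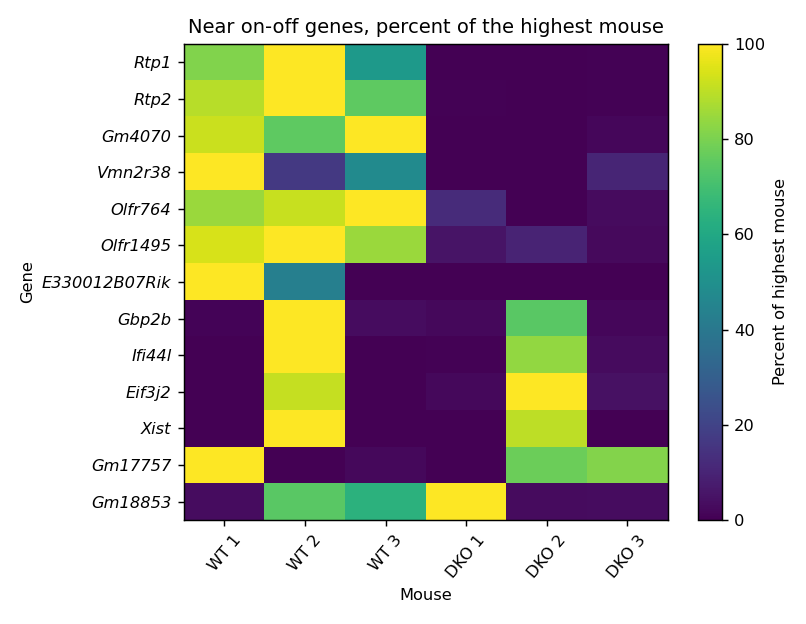
Normalized counts as a percent of the highest mouse (colour) for 13 near on-off genes (rows) in each mouse (columns; DKO, RTP1,2DKO). Gm4070 shares the low mice of Rtp1 and Rtp2, E330012B07Rik is high in WT mice 1 and 2 only, Gbp2b and Ifi44l are high in mouse 2 of both groups, and Gm17757 and Gm18853 alternate.

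The other inducible GTPases did not pass the test. Of the 29 other genes tested in the lists of very large GTPases, GBP, IRG and Mx genes, 0 were called by edgeR's quasi-likelihood test, 0 had an unadjusted p under 0.05, and 0 were called by DESeq2. Over all genes tested, edgeR called 3.61%, and 11.8% had an unadjusted p under 0.05. The 0 calls among 29 genes were thus near the share called over all genes. The median log2 fold change of the 29 genes was 0.06, against 0.02 over all genes tested, and 17 of 29 were positive. The most abundant of them were within their spread. Irgm1, an IRG protein that regulates autophagy of pathogens, had 778.6 ± 57.8 normalized counts in WT and 829.5 ± 69.1 in RTP1,2DKO, and Iigp1 had 395.2 ± 35.0 and 401.3 ± 55.4. Gbp7 had 436.7 ± 37.0 and 465.1 ± 92.7, and Gbp2 had 264.5 ± 44.7 and 316.0 ± 49.5. Mx1 had 152.3 ± 28.6 and 175.8 ± 55.7 (all SD, n = 3).

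Among 48 interferon receptors, kinases, transcription factors and stimulated genes, 1 was called, a share of 2.08% against 3.61% of all genes tested. This was Ifnlr1, the specific chain of the interferon lambda receptor, which fell from 1197.2 ± 145.6 to 752.9 ± 77.3 normalized counts (SD, n = 3; log2 fold change -0.67 ± 0.14 SE, adjusted p = 0.0138 by edgeR's quasi-likelihood test). Without RTP1,2DKO mouse 1 its adjusted p was 0.0701. Ifi27, of the stimulated genes, passed as higher without WT mouse 3 (adjusted p = 0.0058 by edgeR). Rsad2, which encodes the antiviral enzyme viperin, had 769.6 ± 120.1 and 1255.0 ± 358.3 normalized counts and an adjusted p of 0.0771 by the same edgeR test, and it passed with the mice paired by number (adjusted p = 0.0108). In these lists 36 of 48 genes were positive, with a median log2 fold change of 0.16, against 52.6% positive and a median of 0.02 over all genes tested. The most abundant genes of signalling did not pass: Ifnar1, a chain of the type I receptor, had a log2 fold change of -0.10 ± 0.13 and Jak1 of 0.04 ± 0.11 (SE). B2m, the light chain of MHC class I, had 0.23 ± 0.20.

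**Figure D4:**
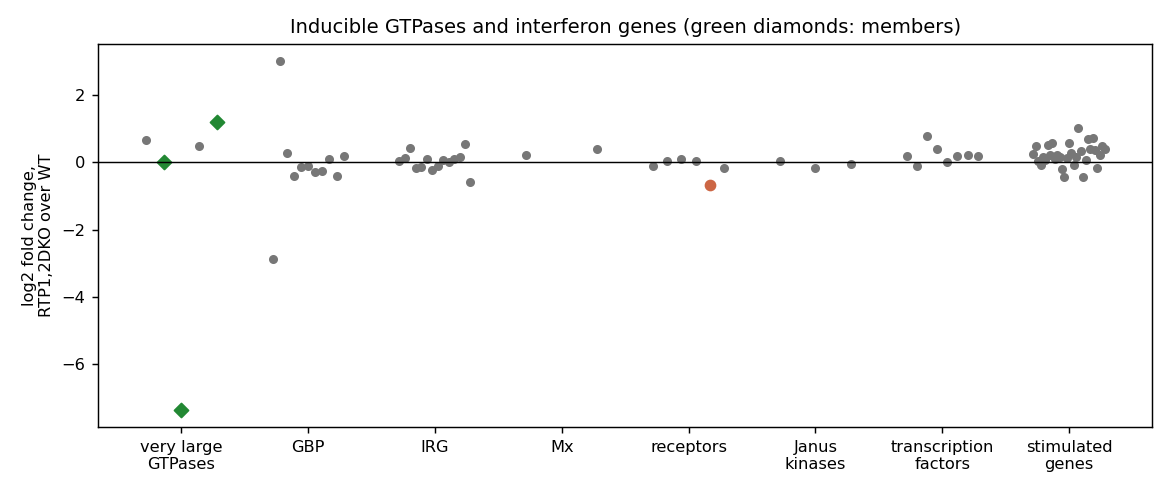
Log2 fold change of RTP1,2DKO over WT (y axis) for each tested gene of the GTPase and interferon lists (x axis). Green diamonds are Gm4070, Gvin1 and Gm1966, and the orange point is Ifnlr1, the gene of these lists other than the members with an adjusted p under 0.05. The outlying grey points of the GBP list, Gbp10 and Gbp11, had means of at most 10.3 normalized counts.

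Markers of the cells that could express these genes were compared beside them. Macrophage markers passed the test in 0 of 7 genes, with summed levels of 2994 to 3259 normalized counts in WT and 3293 to 3374 in RTP1,2DKO mice. Lymphocyte markers passed in 0 of 8 (219 to 484 and 300 to 565), neutrophil markers in 0 of 6 (27851 to 44133 and 24985 to 41481) and endothelial markers in 0 of 4 (2528 to 3159 and 2638 to 2965). With 3.61% of all genes tested called, 0 calls in lists of 4 to 8 genes were near that share. No marker of these lists was at 0 in any mouse. Mature olfactory sensory neuron markers were lower in 6 of 6, with sums of 151913 to 175725 in WT and 76723 to 83413 in RTP1,2DKO mice. Immature neuron markers were higher in 2 of 4, Gng8 and Gap43, with sums of 22376 to 27098 and 30658 to 32575. With the mice paired by number, Dpysl3 passed too (adjusted p = 0.0497 by edgeR), and Gap43 (adjusted p = 0.0418) lost its call without any single mouse but WT mouse 1. Without WT mouse 2, the neutrophil markers S100a8 and S100a9 passed as higher. The neuron sums did not overlap between the groups, like Gm4070 and Gvin1. The macrophage sums did not overlap either, but only narrowly, at 3259 in the highest WT and 3293 in the lowest RTP1,2DKO mouse. Each single macrophage marker overlapped between the groups. The part of these cells in the counts of Gm4070 or Gvin1 was not tested. The sum of mature neuron markers was 175725 and 168274 in WT mice 1 and 2, which expressed E330012B07Rik, and 151913 in WT mouse 3. The part of mature neurons in the pattern of E330012B07Rik was not tested.

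The genes around the members were compared next. Within 1 Mb of the start of E330012B07Rik, 0 of 20 genes were called by edgeR's quasi-likelihood test, 3 had an unadjusted p under 0.05, and 0 were near on-off. Over all genes tested, 3.61% were called and 11.8% had an unadjusted p under 0.05. Of the genes with at least 50 normalized counts in some mouse, 1.99% were near on-off, and some of the 20 neighbours did not reach that minimum. The counts among the neighbours were near those shares. The nearest of them included Pthlh, 71.9 kb away, which encodes a parathyroid hormone-like protein and had 121.0, 170.8 and 196.3 normalized counts in WT mice 1 to 3, against 188.6, 252.9 and 224.4 in RTP1,2DKO mice. Stk38l, a kinase gene, was the only neighbour on chromosome 6 whose groups did not overlap, with a log2 fold change of -0.48 ± 0.13 (SE) and an adjusted p of 0.0577 by edgeR. It passed with the mice paired by number (adjusted p = 0.0407), with DESeq2 (0.00919) and in edgeR without WT mouse 3 (0.014). Without WT mouse 3, Klhl42 passed as well (log2 fold change -0.58, adjusted p = 0.0451 by edgeR).

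Around the GTPases on chromosome 7, 27 neighbours that are not Olfr genes were tested within 1 Mb, and 1 of them, Cnga4, was called, a share of 3.7% against 3.61% of all genes tested. Cnga4, a subunit of the olfactory cyclic nucleotide-gated channel and itself a marker of mature neurons, fell by 1.18 on the log2 scale (SE 0.13, adjusted p = 0.000192 by edgeR's quasi-likelihood test). Apart from the members, the near on-off neighbours that are not Olfr genes were Gm17757 and Gm18853. Among the 49 Olfr neighbours in the files, 11 were near on-off, each with its low mice in the RTP1,2DKO group alone, and 1 of them, Olfr671, had the low mice of Gm4070. Over the whole series, 142 of 1248 Olfr genes were near on-off, and most of these also had their low mice in the RTP1,2DKO group alone. The pattern thus also occurred in Olfr genes elsewhere, although 11 of 49 is a larger share than 142 of 1248. Why the shares differ was not tested. Of the 47 Olfr neighbours tested, 27 were called (57.4%), 26 as lower, against 39.8% of the 1199 Olfr genes tested in the whole series. Olfr671, with 63.1, 49.6 and 37.5 normalized counts in WT and 3.2, 4.4 and 5.9 in RTP1,2DKO mice, fell by 3.45 on the log2 scale (SE 0.52), the largest change of these, and Olfr715 was the only neighbour called higher, at 0.73 ± 0.18 (SE). With a window of 0.5 Mb, 15 neighbours of any kind were called in place of 28.

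**Figure D5:**
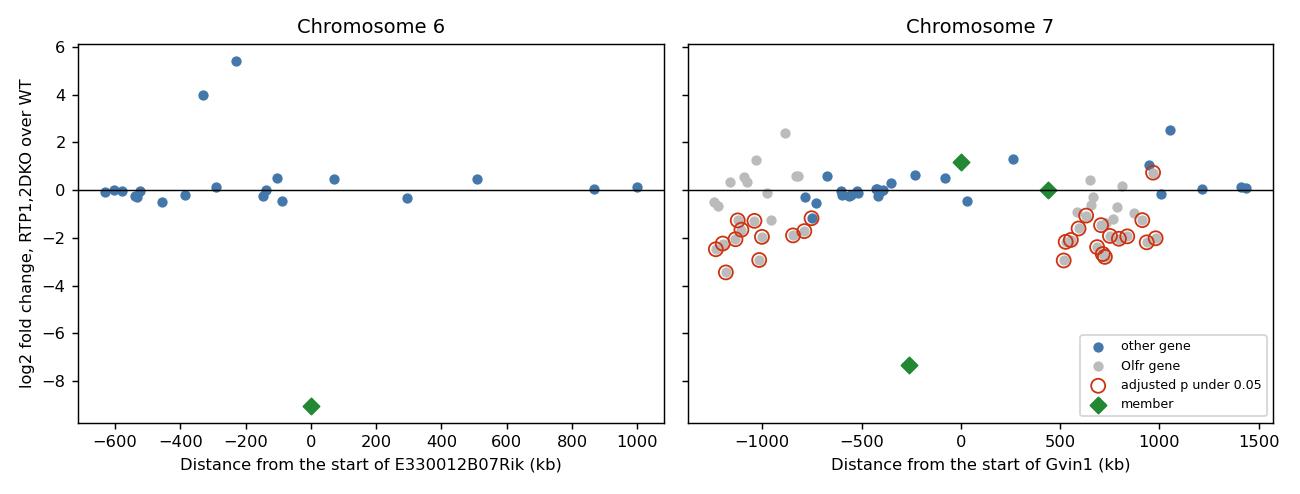
Log2 fold change of RTP1,2DKO over WT (y axis) of members and neighbours by distance in kb (x axis) from the start of E330012B07Rik (left) and of Gvin1 (right), with neighbours of adjusted p under 0.05 ringed in red and members as green diamonds. No neighbour comes near the values of E330012B07Rik and Gm4070, the points above 3 on chromosome 6 are genes with means of at most 5.2 normalized counts, and the ringed points on chromosome 7 are Olfr genes and Cnga4.

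Genes known to differ between C57BL/6 and 129 lines were also measured, from a list chosen with earlier results known. Adult beta-globin is encoded by Hbb-bs and Hbb-bt in the haplotype of C57BL/6 and by Hbb-b1 and Hbb-b2 in that of many 129 lines, at a locus whose Hbb-bs starts 2.07 Mb from Gm4070. Hbb-b1 and Hbb-b2 took 0.222%, 0.298% and 0.276% of the summed count of the 4 genes in WT mice 1 to 3, against 0.307%, 0.221% and 0.316% in the same-numbered RTP1,2DKO mice. These shares overlapped between the groups, and since the 4 genes are close copies, their split is uncertain too. Nnt, a mitochondrial transhydrogenase in which C57BL/6J carries a deletion, had 342.0 ± 36.4 and 332.7 ± 42.8 normalized counts, and Casp4, which is inactivated in many 129 lines, had 86.6 ± 35.4 and 74.5 ± 12.5 (SD, n = 3). Of the 9 genes of this list, 1 was called, Hbb-bt, which was higher in RTP1,2DKO (log2 fold change 0.88 ± 0.22 SE, adjusted p = 0.0485 by edgeR), and all 6 red cell markers had positive values. It lost its call without any single mouse but RTP1,2DKO mouse 3. With the mice paired by number, Hbb-bt did not pass (adjusted p = 0.0506) and Glo1, a detoxifying glyoxalase, did (log2 fold change -0.47, adjusted p = 0.0238). Counts per gene hold no bases, so the strain of a locus was not tested.

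Genes most like each member over the 6 mice were ranked by the Pearson correlation of log2(normalized count + 1) among 17087 genes with a mean of at least 20, as a description over mice that share their genotype and normalization. E330012B07Rik was closest to Kcna2, a potassium channel gene (r = 0.994), followed by D5Ertd579e, Arl3, Fgf9 and Ryr1. None of these was near on-off: Kcna2 ranged from 10956 to 17078 normalized counts, and its WT mice 1 and 2 were the highest. Gm4070 was closest to Golga7b, Snx9, Olfr741, Olfr918 and Nqo1 (r = 0.991 to 0.994). Gvin1 was closest to Olfr748, Lmbr1l, Cotl1, Olfr799 and Homer3 (0.992 to 0.995), and Gm1966 to Pcdhgb8, Zfp953, 4930578M01Rik, Prkcb and Zfp277 (0.973 to 0.984). Of the 20 genes, 2 are on chromosome 7, Ryr1 and Prkcb, and none is a neighbour of a member.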

How the data were processed

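RNA-Seq of whole olfactory mucosa from 3 WT and 3 RTP1,2DKO mice was re-analysed. The authors built TruSeq stranded libraries and assigned reads with kallisto (version not given in the sources used here; the submitters' processing notes name mm10) to UCSC transcripts in which the OR genes had been given longer annotations. Per transcript and mouse, the authors deposited estimated counts and TPM. The deposited estimated counts were summed per gene, with the gene being the transcript name without its trailing number, and rounded. The deposited TPM served for levels per length and as an alternative scale, with a pseudocount of 0.1. Groups and mouse numbers come from the sample titles.

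All 22152 genes that had a count of 1 or more in any mouse were tested with edgeR 4.0.16 (quasi-likelihood, R 4.3.3) with median-of-ratios size factors from DESeq2 1.42.0, no covariate and Benjamini-Hochberg adjustment over all of them, at a threshold of 0.05. Each SE of a log2 fold change is its absolute value divided by the square root of its quasi-likelihood F statistic. The code was tested on simulated counts. The members and all gene lists were chosen with earlier results of these data known. Besides the 4 members, the genes named are Rtp1 and Rtp2, list genes past the threshold or among the 2 most abundant of a list, near on-off genes with the low mice of a member, the 5 genes most like each member, and neighbours past the threshold, of which the Olfr genes are mostly given by count. Others are said to be chosen after their values were seen, or stand beside a result as markers, and an item that the rule would name is not reported here. Transcripts were aligned with edlib 1.3.9.post1 on GENCODE M21 (GRCm38).

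Deviations from the group means correlated between WT and RTP1,2DKO mice of the same number at 0.139, 0.179 and 0.103 for numbers 1 to 3 (18133 genes). Between mice of different numbers the values ran from -0.219 to 0.093, so the highest of these was close to the lowest same-number value. The methods state sex-matched littermates, but the labels do not say that a number marks a litter. The numbers were taken to pair the mice only in an alternative fit with the number as a block. Whether they mark litters was not tested. Replicates were separate libraries, with a mean chi-square per gene of at least 48.3 between mice of a group. Alternatives were TMM, total counts, a low-count filter, DESeq2's Wald test, the block, leaving out each mouse, the TPM scale and other limits for near on-off genes and neighbours.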

Additional observations from a re-analysis of the deposited data

How the results depend on the processing

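Gm4070, Gvin1 and E330012B07Rik kept the direction of their log2 fold change (main values -7.35, 1.19 and -9.03) under every alternative that gave one. Leaving out each mouse in turn gave -11.61 to -6.73 for Gm4070, 1.12 to 1.30 for Gvin1, -10.87 to -7.90 for E330012B07Rik and -0.23 to 0.16 for Gm1966. The values of -11.61 and -10.87 were without RTP1,2DKO mouse 3, which leaves knockouts at 0 only, so they depend on the prior count and are no bounds, and the low-count filter removed E330012B07Rik. On the log2(TPM + 0.1) scale, which understates changes of low genes and where the median of all genes was itself at -0.206, the values were -3.88, 0.91 and -4.02, and the sum of Gm4070 and Gvin1, at -0.08 on counts, was at -0.30 on deposited TPM (-0.10 to -0.04 with each mouse left out of the counts).

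The count of genes called over the whole table was 799, and 1012 with the replicate block, 1112 with DESeq2 and 598 to 777 with each mouse left out. The other GTPases stayed at 0 calls throughout. The interferon lists had 1 call, and 2 with DESeq2 and with the replicate block, by the addition of Rsad2, and 0 to 2 with each mouse left out: 0 without RTP1,2DKO mouse 1, and 2 without WT mouse 3, by the addition of Ifi27 (adjusted p = 0.0058), or without RTP1,2DKO mouse 3. Hbb-bt had an edgeR adjusted p of 0.0071 without RTP1,2DKO mouse 3. Neighbours called were 28, and 21 to 26 with each mouse left out, 29 with the block (Olfr714 lost, Olfr686 and Stk38l gained) and 15 within 0.5 Mb. Olfr714 (adjusted p = 0.0483) was lost without any single mouse. Apart from the genes named here, Hbb-bt, Glo1 and Dpysl3, the block changed no call that the text reports for a named gene. Near on-off genes numbered 323, and 859 with a ratio of 4, 142 with a ratio of 16, 692 with a minimum of 20 normalized counts, 208 with 100, and 181 without Olfr genes.

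With 3 mice a group, the smallest p of an exact permutation test is 0.1. Precision for Gm4070 and Gvin1 is limited by the reads over 3 differing bases, whose number the deposited counts do not show, and E330012B07Rik in low mice by counts of 0 or 1.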

Other observations

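In WT mouse 3, transcripts of tissues next to the mucosa were high. Bpifa2, a salivary protein gene, had 30684 normalized counts there and 17.6 to 43.6 in the other mice. Ambn, which encodes the enamel protein ameloblastin, had 14798 there, 1553 and 583.0 in RTP1,2DKO mice 2 and 3, and at most 94.1 in the remaining mice. Both genes were named after their values were seen.

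Eif3j2, a copy of a translation initiation factor gene on chromosome 18, had 0, 635.4 and 0 normalized counts in WT mice 1 to 3, against 14.8, 695.9 and 31.4 in the same-numbered RTP1,2DKO mice, high in the same mice as Gbp2b and Ifi44l. Sharing of its reads with related copies was not tested.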
